A study of Mus musculus with 18 samples.

Results

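Regulatory T cells (Treg) and conventional T cells (Tconv) of the mouse spleen were compared on 6 of the 18 arrays of the series, 3 from each cell type. The arrays were chosen by their labels alone, and all 6 lay on one BeadChip. The platform was an Illumina bead array, MouseWG-6 v2.0, which reads each probe as the mean brightness of the beads that carry it. The spleens came from warm-conditioned mice kept at 30°C, which in the study served as controls for T cells of brown adipose tissue (BAT). The other 12 arrays held Treg and Tconv cells of BAT, 3 of each from mice kept at 30°C and 3 of each from mice exposed to 12°C for 2 days.

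According to the methods, the animals were female C57Bl6 mice that were 8 weeks old at delivery and acclimatized for 2 weeks. The labels give the genotype Foxp3-GFP-DTR-CD90.1 on a C57BL/6 background for all groups, with Treg and Tconv cells told apart by CD4 and Foxp3, whereas the methods describe wild-type mice and a sort on CD4 and CD25. The data hold nothing that decides between the descriptions. Organs were pooled before sorting, and nothing states how many mice went into each of the pools that served as replicates. The spread between replicates is therefore one between pools and does not measure the spread between single animals. Each array was hybridized with product of the NuGEN Ovation Pico WTA amplification, which started from 2.5 ng of RNA.

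Treg cells are the suppressive branch of CD4+ T cells. Their identity rests on the transcription factor Foxp3, and most carry the high-affinity interleukin-2 receptor chain CD25 on their surface. Tconv cells are the remaining CD4+ T cells, which include the naive cells that circulate through the spleen and the helper cells that arise from them. Whichever of Foxp3 and CD25 was used for the sort, a difference in that marker would have been no finding.

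Probes are identified in the deposited table by Illumina identifiers and 0 gene names. An annotation that pairs them with genes was not used here. Counts therefore refer to probes, genes and their sequences are not given, and neither the cell labels nor an admixture of other splenic cells could be checked against marker genes.

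The spleen arrays varied more among themselves than the BAT arrays. Between 27.8% and 35.1% of the 45267 regular probes had a detection p-value under 0.05 on a spleen array, against 35.7% to 42.2% on a BAT array. Between 22.5% and 23.8% of the 936 negative control probes passed the same limit on the spleen arrays, so a detected probe is not necessarily one well above background. Only 8.93% to 13.3% of the regular probes exceeded the 95th percentile of the negative controls. The root mean square SD of the log2 signals within groups was 0.625 in the spleen and 0.413 in BAT, and 65.4% of the tested probes had the larger SD in the spleen.

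Correlations between arrays did not separate the spleen samples by their labels. Pearson's r over the tested probes was 0.668 to 0.739 between Tconv arrays, 0.746 to 0.811 between Treg arrays and 0.681 to 0.821 between arrays of different cell types. The array labelled Tconv replicate 1 had r values of 0.727 and 0.739 with the other Tconv arrays, and r values of 0.760 to 0.821 with the Treg arrays. It was thus closer to every Treg array than to either Tconv array. Tconv replicates 2 and 3 had an r of 0.668 with each other, also below that of either with any Treg array (0.681 to 0.743). Tconv replicate 1 had 35.1% of the regular probes detected, against 27.8% and 29.2% on Tconv replicates 2 and 3. In BAT, the mean r within a group was 0.848 to 0.920. What set Tconv replicate 1 closer to the Treg arrays was not tested, and counts are given with and without it below.

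**Figure D1:**
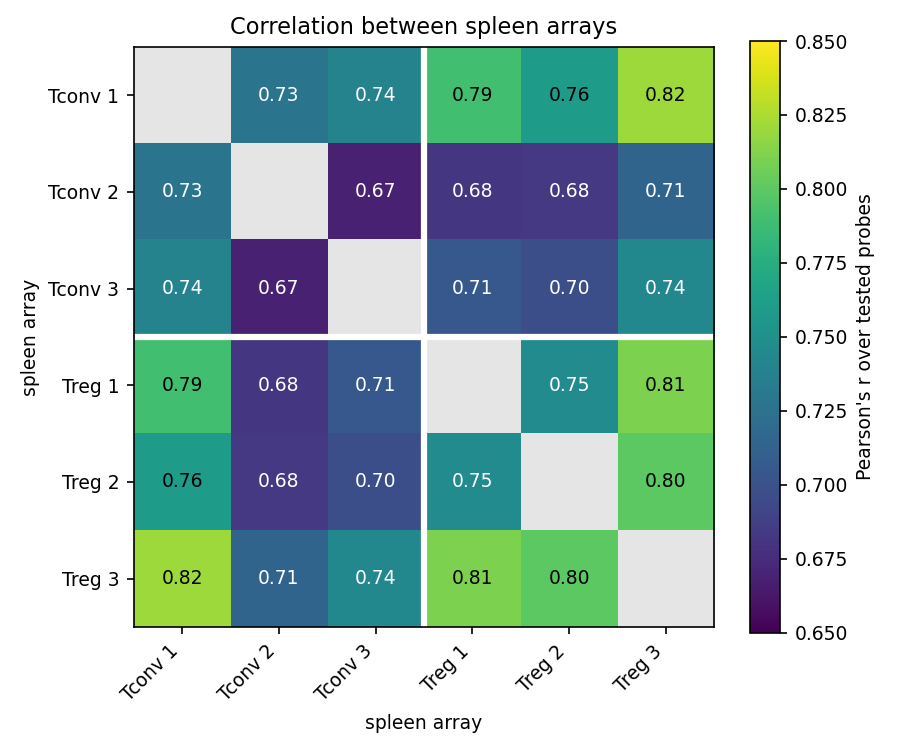
Pearson's correlation over the tested probes between the 6 spleen arrays, with the value printed in each cell and the arrays in the same order on both axes. Tconv replicate 1 correlates at 0.76 to 0.82 with the Treg arrays and at 0.73 and 0.74 with the other Tconv arrays, whereas Tconv replicates 2 and 3 correlate at 0.67 with each other.

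The error from the beads was smaller than the spread between arrays. Each probe was read from a median of 40 to 42 beads per spleen array, and from 10 or more in every case. The median standard error from the beads was 0.0729 on the log2 scale for Treg and 0.0726 for Tconv cells, against a median SD between arrays of 0.337 and 0.181 before correction and of 0.286 and 0.308 after normalization. Before correction, housekeeping probes had a median log2 signal of 7.65 on Tconv replicate 2, the lowest of the 6, and of 8.37 to 8.75 on the others. Every BAT array was brighter, with medians of 9.16 to 10.8.

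Between Treg and Tconv cells of the spleen, 103 probes were called higher in Treg cells, which is 0.592% of the 17395 probes tested. A further 59 probes, or 0.339%, were called lower, and both together were 162 probes or 0.931%. A call required more than a 2-fold difference and a Benjamini-Hochberg adjusted p under 0.05 in limma, fitted on all 18 arrays with 1 spread shared by the 6 groups. In these sorted bulk samples, a change in the makeup of the sorted cells and a change in RNA per cell cannot be told apart. More than 2-fold differences without regard to the test were found for 801 probes (4.6%) in the direction of Treg cells and for 610 probes (3.51%) in the direction of Tconv cells. The median difference over all tested probes was 0.01 on the log2 scale, with a median SE of 0.286.

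These counts rest on the spread borrowed from BAT. When the 6 spleen arrays were fitted alone, limma called 1 probe higher, with a log2 difference of 3.45 and an adjusted p of 0.0432, and 0 probes lower. At an unadjusted p under 0.05, that fit found 999 probes, or 5.74% of those tested, against 1999 or 11.5% in the fit of all arrays. Each of the 103 and of the 59 probes had an unadjusted p under 0.05 in the spleen alone, but their median adjusted p there was 0.476 and 0.483. The 103 and 59 probes are therefore described below as a ranking of differences in these arrays, with that limit.

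**Figure D2:**
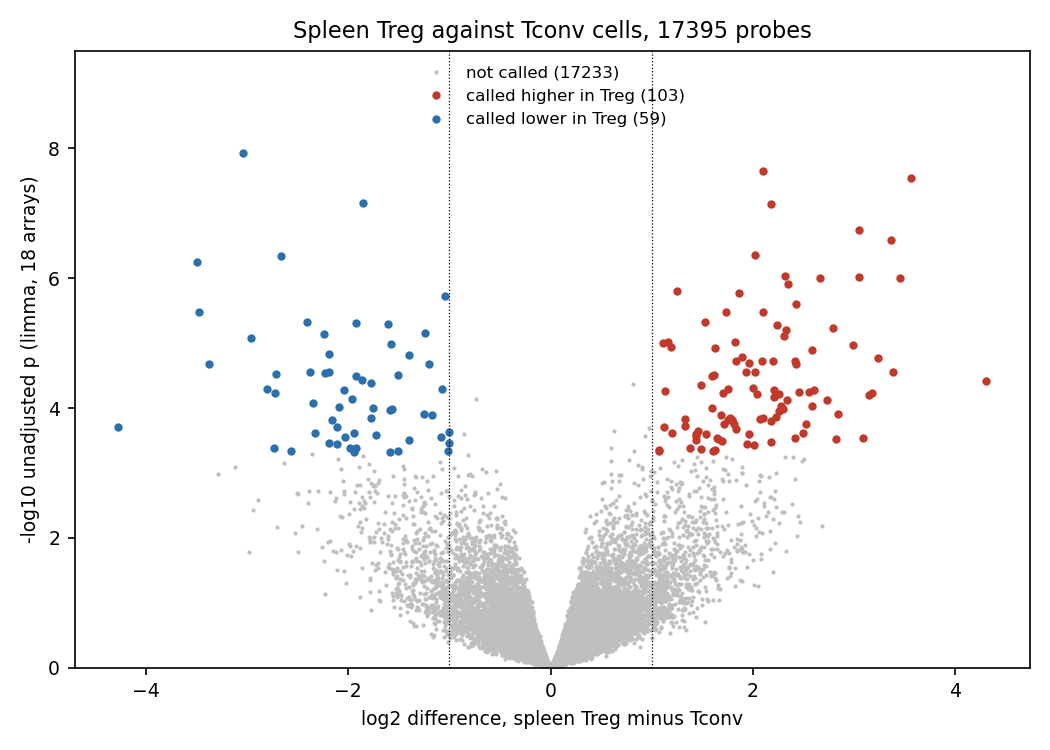
Log2 difference between spleen Treg and Tconv cells (x axis) against the unadjusted p-value of limma on all 18 arrays (y axis, minus log10) for each tested probe, with dotted lines at 2-fold. The 103 probes called higher in Treg cells and the 59 called lower lie outside the lines, whereas many uncalled probes have differences as large with a larger error.

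The probes higher in Treg cells had a median log2 difference of 2.02 in the fit of all arrays. The quartiles were 1.63 and 2.42, and the full range was 1.07 to 4.31. In 55 of them the difference exceeded 4-fold and in 11 it exceeded 8-fold. Their SE had a median of 0.346 and ran from 0.161 to 0.736. The 3 Treg arrays lay above the 3 Tconv arrays for all 103, as they did for 1121 or 6.44% of the tested probes. The gap between the lowest Treg and the highest Tconv array had a median of 1.01 log2 units and was as small as 0.0572 and as large as 3.10.

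The probes lower in Treg cells mirrored these sizes. Their median log2 difference was −1.94, with quartiles of −2.34 and −1.57 and a range of −1.0 to −4.28. In 27 of the 59 the difference exceeded 4-fold and in 5 it exceeded 8-fold. All 59 had their Treg arrays below their Tconv arrays, as did 925 or 5.32% of the tested probes. The gap between the groups had a median of 0.940 log2 units, from 0.107 to 3.70.

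Most called probes were detected on at least 1 array of the group in which they were lower. All 103 probes higher in Treg cells were detected on the 3 Treg arrays, and 41 of them were detected on the 3 Tconv arrays as well. Of all tested probes, 44.3% were detected on the 6 spleen arrays. On the Tconv side, 31 were detected on 2 arrays, 18 on 1 array and 13, or 12.6%, on none. All 59 probes lower in Treg cells were detected on the 3 Tconv arrays. On the Treg side, 27 of these were detected on all 3 arrays, 10 on 2 arrays, 12 on 1 array and 10, or 16.9%, on none. Over all tested probes, 10.9% were detected on no Tconv array and 9.09% on no Treg array.

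Calls were concentrated among the brighter probes, where the spread was also larger. The tested probes were split into 4 classes of equal size by mean signal over the 18 arrays. In the brightest class, 84 were called higher and 31 lower, or 2.64% together. In the dimmest class, 3 were called higher and 7 lower, or 0.230%. Mean signals in that class were 4.96 to 5.39, near the lowest detected signals of the spleen arrays (5.14 to 5.27). A difference of more than 2-fold, which a call required, therefore had little room to show there. The median SD within Treg arrays was 0.142 in the dimmest and 0.566 in the brightest class, and that within Tconv arrays was 0.160 and 0.658.

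Probe ILMN_2911009 showed the largest excess in Treg cells. Its log2 signal on Treg replicates 1, 2 and 3 was 10.85, 10.52 and 10.61, and on Tconv replicates 1, 2 and 3 it was 5.50, 4.86 and 8.69. The Treg arrays were close together, whereas Tconv replicate 3 stood well above the other Tconv arrays without reaching the Treg level. Before any correction, the mean bead intensities were 1738, 1335 and 1711 in Treg and 159, 99.5 and 428 in Tconv cells, so that the same order is found in the deposited values. The log2 difference was 4.31 with an SE of 0.74, a 19.8-fold ratio, with an adjusted p of 0.00994 in limma on all arrays and of 0.598 in limma on the spleen arrays alone. The log2 difference was 3.56 without Tconv replicate 2, 5.49 without Tconv replicate 3 and 3.01 without background correction.

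Probe ILMN_2635132 was the next highest. It had log2 signals of 8.96, 7.85 and 9.31 on the Treg arrays and of 5.00, 5.09 and 5.35 on the Tconv arrays. The Tconv arrays were all near background, with 1 of 3 detected, and the groups lay far apart. The log2 difference was 3.56 with an SE of 0.33, or 11.8-fold. Since the Tconv signals were near background, the size depended on the correction, and the log2 difference was 2.03 without background correction and 2.71 with an offset of 50. Its adjusted p in limma was 0.000164 on all arrays and 0.197 on the spleen arrays alone.

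Probe ILMN_1229957 showed the largest deficit in Treg cells. It was not detected on any Treg array, where its log2 signals were 4.83, 4.93 and 5.03, and it had signals of 9.01, 9.88 and 8.73 on the Tconv arrays. The Treg arrays were close together, with an SD of 0.10, whereas the Tconv arrays had an SD of 0.60. Treg cells were at least 16.4-fold lower, a bound against the lowest signal detected on the same arrays, with a fitted log2 difference of −4.28 and an SE of 0.86. The bound holds for this background correction alone, and the log2 difference was −2.64 without it and −3.28 with an offset of 50. The adjusted p in limma was 0.0280 on all arrays and 0.0940 on the spleen arrays alone. Its adjusted p in limma was 0.0781 without Tconv replicate 2 and 0.0703, 0.0659 and 0.0559 without Treg replicates 1, 2 and 3, so the call was lost without any of these arrays. In the spleen-only fit its SE was 0.32, smaller than in the fit of all arrays, since its spread was larger in BAT.

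Probe ILMN_1249213 was likewise not detected on any Treg array. Its log2 signals were 5.09, 5.10 and 5.10 in Treg and 8.10, 9.15 and 8.52 in Tconv cells. The Tconv arrays all stood well above the Treg arrays, which hardly differed. Treg cells were at least 10.7-fold lower, with a fitted log2 difference of −3.49 and an SE of 0.41. This bound likewise holds for this correction alone, and the log2 difference was −1.96 without background correction and −2.62 with an offset of 50. The adjusted p in limma was 0.000978 on all arrays and 0.0940 on the spleen arrays alone.

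**Figure D3:**
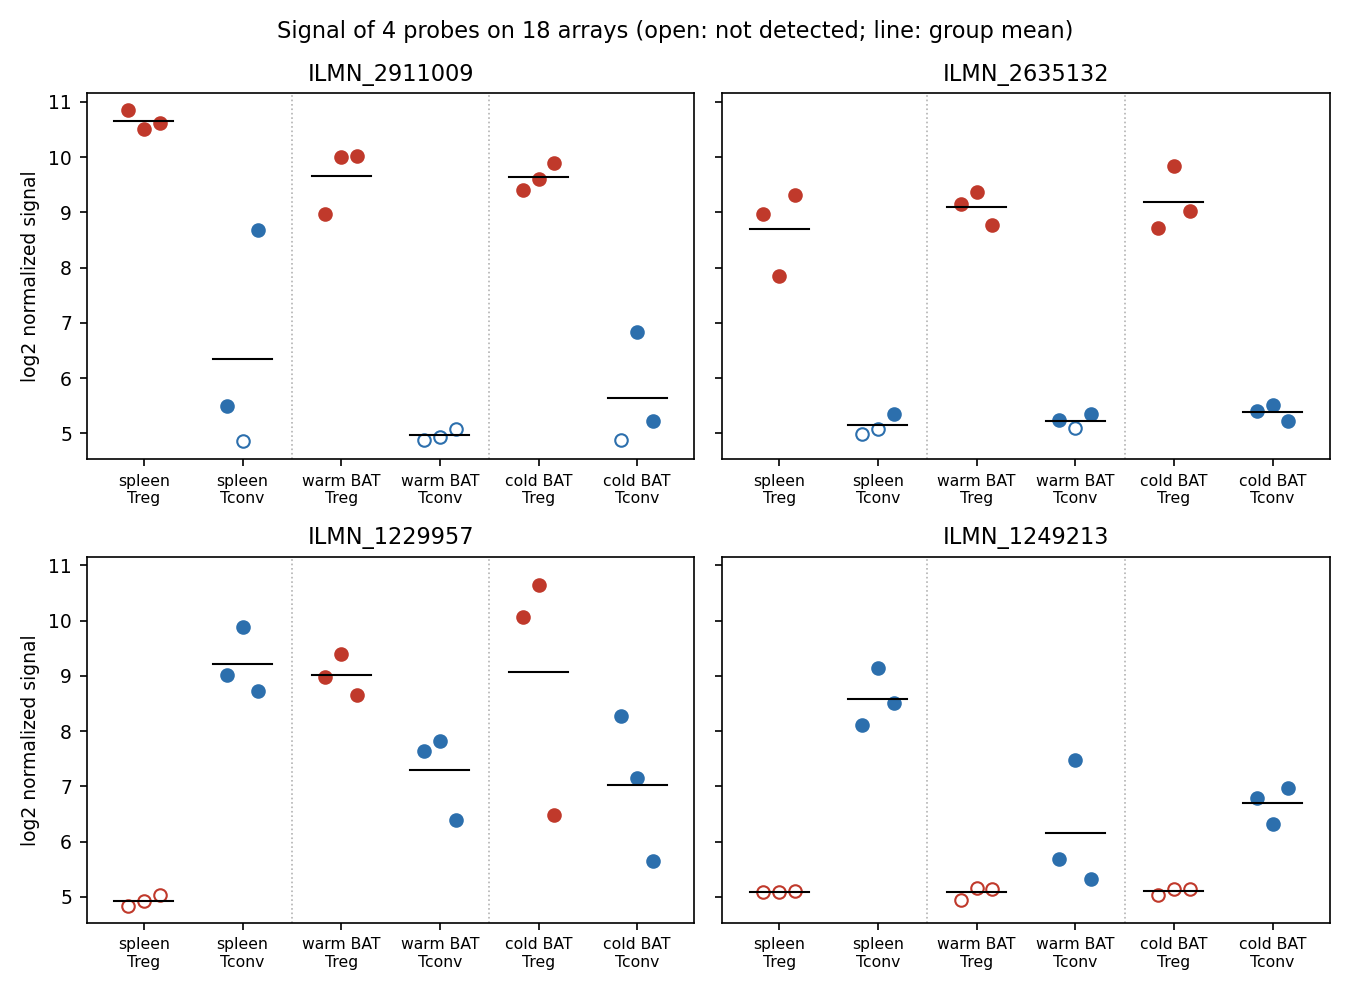
Log2 normalized signal (y axis) of 4 probes on all 18 arrays, grouped by tissue and cell type along the x axis, with Treg cells in red and Tconv cells in blue. Filled points are detected, open points are not, and lines are means of 3 arrays. Both upper probes are higher in Treg cells of every tissue, whereas ILMN_1229957 is undetected on the spleen Treg arrays alone and ILMN_1249213 on the Treg arrays of every tissue.

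The number of calls depended on single spleen arrays. Without Tconv replicate 1, the array closest to the Treg arrays, the fit of the remaining 17 arrays called 212 probes higher (1.21% of those tested) and 149 lower (0.849%), and these included 97 of the 103 and 52 of the 59. Without Tconv replicate 2, 87 were called higher and 98 lower. Without Tconv replicate 3, 107 were called higher and 117 lower. The lower calls were 40 without Treg replicate 2 and 67 without Treg replicate 3. The share of calls in the higher direction was 63.6% with all arrays, 47.0% and 47.8% without Tconv replicates 2 and 3, and 75.3% without Treg replicate 2. In all 6 fits that left out 1 spleen array, 55 of the 103 and 27 of the 59 probes were called.

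**Figure D4:**
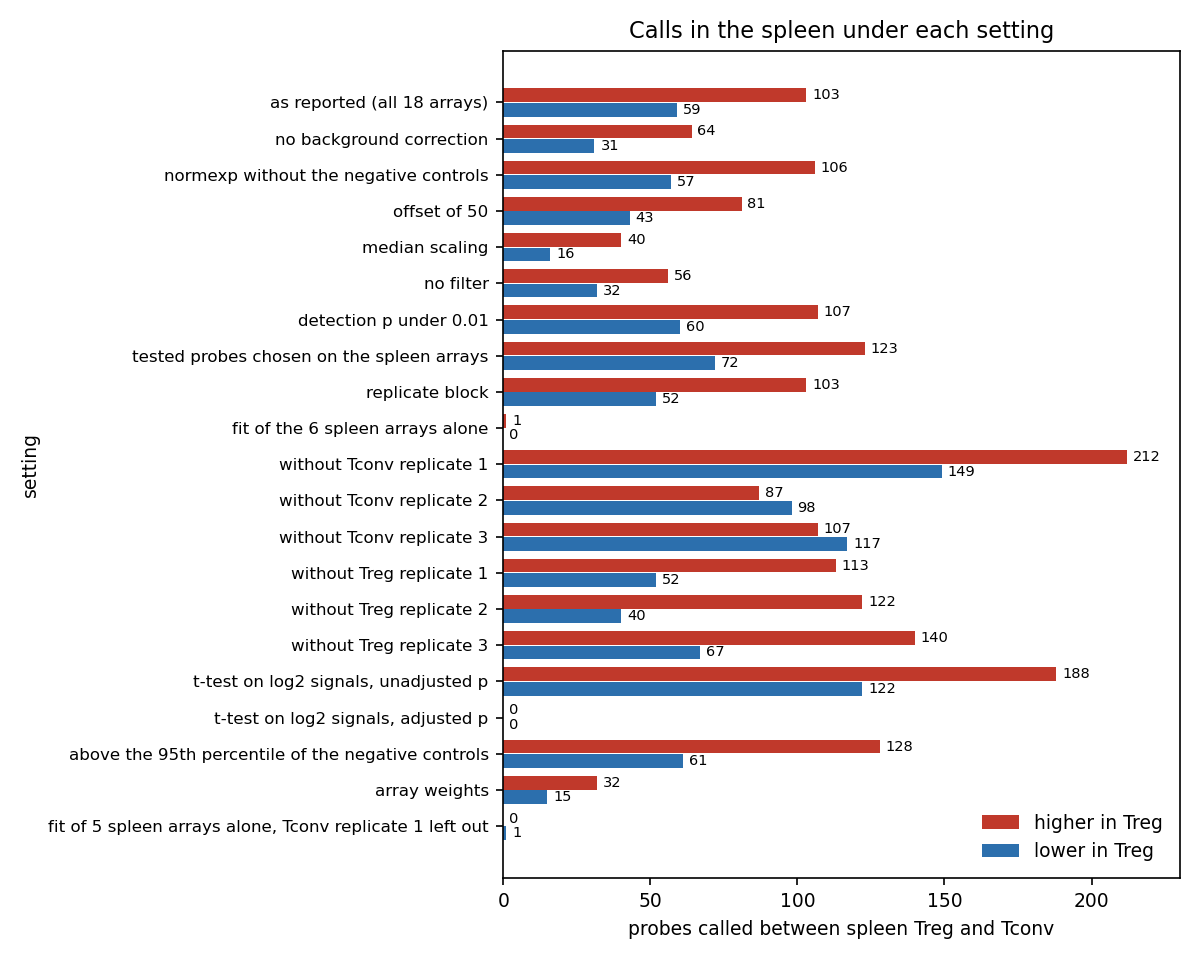
Number of probes called higher (red) and lower (blue) in spleen Treg than in Tconv cells (x axis) under each setting (y axis), with the count printed at each bar. The bars run from 0 and 0 with the methods' test after adjustment, and 1 and 0 with the 6 spleen arrays fitted alone, to 212 and 149 without Tconv replicate 1.

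The same probes were then read in warm BAT, whose 6 arrays share none with the spleen comparison. According to the paper's supplement, however, the Treg cells of spleen and warm BAT were taken from the same mice. The fit did not take this into account, so the tissues may not be independent sets of animals. Of the 103 probes higher in spleen Treg cells, 73 or 70.9% were higher in Treg cells of warm BAT too, as were 45.3% of all tested probes. Of these 103, 12 or 11.7% were called higher in warm BAT, where 0.569% of the tested probes were. The 12 are 12.1% of the 99 probes called higher there. Both tissues were tested with the same spread for each probe, so a small spread favoured a call in both. In addition, 84 of the 103 were in the brightest class of probes, where spleen calls were more frequent. The share called over all tested probes is therefore not a like-for-like baseline, here, in cold BAT or for the lower probes. The Treg arrays lay above the Tconv arrays of warm BAT for 33 of the 103, against 8% of all tested probes, and below them for 11, close to the 10.6% of all tested probes that did so. The median log2 difference of the 103 in warm BAT was 0.22, beside −0.03 over all tested probes.

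Of the 59 probes lower in spleen Treg cells, 44 or 74.6% were lower in warm BAT Treg cells, as were 54.7% of all tested probes. Called lower in warm BAT were 6 of the 59, or 10.2%, where 0.19% of the tested probes were. They are 18.2% of the 33 called lower there. The Treg arrays lay below the Tconv arrays of warm BAT for 18 of the 59, against 10.6% of all tested probes. The median log2 difference of the 59 in warm BAT was −0.22. In cold BAT, 15 of the 103 (14.6%, against 1.25% of the tested probes) were called higher and 6 of the 59 (10.2%, against 0.339%) were called lower, with medians of 0.27 and −0.36.

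The calls made without Tconv replicate 1 were read in warm BAT in the same way. Of the 212 higher probes, 56.6% were higher in warm BAT Treg cells and 11 were called so. Of the 149 lower probes, 69.1% were lower there and 5 were called so. Shares over all tested probes were taken from the fit of all arrays alone. There, 45.3% were higher and 54.7% lower in warm BAT Treg cells, and 0.569% and 0.19% were called.

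A small group was called in the same direction in spleen, warm BAT and cold BAT. It held 11 probes higher in Treg cells, or 0.0632% of those tested, and 5 lower, or 0.0287%. The 11 had spleen differences of 1.83 to 4.31 with a median of 2.21, beside medians of 2.39 in warm BAT and 2.28 in cold BAT. ILMN_2911009 and ILMN_2635132 were among them. The 5 lower probes had spleen differences of −2.40 to −1.05 with a median of −1.59, beside −2.18 and −2.09 in warm and cold BAT. Each of the 11 was called in all 6 fits that left out 1 spleen array, as were 2 of the 5.

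For ILMN_2911009, warm BAT gave log2 signals of 8.98, 10.00 and 10.01 in Treg cells and of 4.88, 4.93 and 5.09 in Tconv cells, none of the latter detected. Its log2 difference was 4.70 there and 3.99 in cold BAT. The difference between spleen and warm BAT was −0.39, with a 95% confidence interval of −2.61 to 1.84, so that the size in the spleen relative to warm BAT was not well determined. For ILMN_2635132, the log2 difference was 3.87 in warm BAT and 3.81 in cold BAT, and the difference between spleen and warm BAT was −0.30, with an interval of −1.31 to 0.70.

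The lower pair behaved unlike each other in BAT. ILMN_1249213 was not detected on any Treg array of BAT, and its log2 difference was −1.08 in warm BAT (adjusted p = 0.434 in limma) and −1.59 in cold BAT (adjusted p = 0.0681 in limma). ILMN_1229957 had the opposite sign in BAT. Its warm BAT signals were 8.99, 9.40 and 8.66 in Treg and 7.65, 7.82 and 6.39 in Tconv cells, a log2 difference of 1.73 (adjusted p = 0.692 in limma). The spleen difference minus the warm BAT difference was −6.0 with an SE of 1.22, and its adjusted p of 0.0748 in limma did not pass.

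Whether the Treg to Tconv difference itself differed between spleen and warm BAT was tested as an interaction in the same limma fit. It was called for 33 probes, or 0.19% of those tested, with 16 above 0 (0.092%) and 17 below 0 (0.0977%). At an unadjusted p under 0.05 in that fit, 8.38% of the tested probes differed. Each of the 33 was called in one tissue and not in the other, 17 in the spleen and 16 in warm BAT. The spleen calls in this group comprised 12 of the 103 higher probes and 5 of the 59 lower probes.

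The 12 probes higher in spleen Treg cells by this test had spleen differences of 1.11 to 3.45 with a median of 2.10, and warm BAT differences of −0.92 to 0.22 with a median of −0.31. They were not silent in BAT, since 11 of the 12 were detected on all 6 warm BAT arrays. The 5 lower probes had spleen differences of −3.48 to −1.24 with a median of −2.96, and warm BAT differences of −0.30 to 1.20 with a median of 0.16. Of these, 4 were detected on all 6 warm BAT arrays, but the levels of the 5 in BAT were low. Their warm BAT medians were 5.78 in Treg and 5.56 in Tconv cells, with highest levels of 7.89 and 6.68. The lowest detected signal on the warm BAT arrays was 5.07 to 5.11, so a lower level in Treg cells had little room to show. The count of 33 rose to 138 without spleen Tconv replicate 1 and fell to 21 without spleen Tconv replicate 2. It was 17 and 14 without warm BAT Tconv replicates 1 and 3, and 16 and 21 without warm BAT Treg replicates 1 and 2.

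A missing call in warm BAT did not by itself show a missing difference. Of all 91 higher probes that were not called in warm BAT, 38 had a 95% confidence interval of the warm BAT difference within 2-fold in both directions, and in 40 the interval reached past 2-fold in the direction of the spleen. Of all 53 lower probes not called in warm BAT, these numbers were 23 and 25. The intervals rest on the spread shared by all groups, the spleen included. For the probes called higher in the spleen, the median SD was 0.553 within spleen groups and 0.346 within BAT groups. For those called lower it was 0.518 and 0.362. The warm BAT intervals may therefore be wider than the spread within BAT would give.

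**Figure D5:**
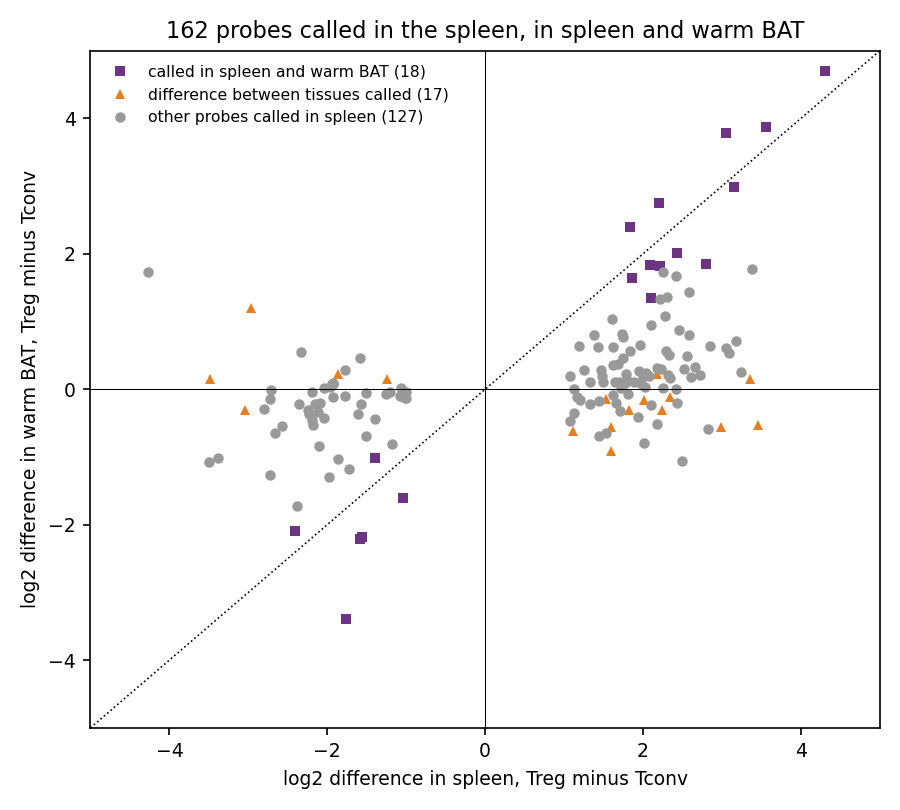
Log2 difference between Treg and Tconv cells in the spleen (x axis) and in warm BAT (y axis) for the 162 probes called in the spleen, with a dotted line where both are equal. The 18 probes called in both tissues (squares) have the same sign in both, the 17 whose difference between the tissues was called (triangles) lie between −0.92 and 1.20 in warm BAT, and circles are the other 127.

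The levels behind these differences were compared as means over each list. The 103 higher probes had a mean log2 signal of 7.99 ± 0.02 (SD, n = 3) in spleen Treg cells and 5.90 ± 0.25 in spleen Tconv cells. In warm BAT their mean was 7.65 ± 0.02 in Treg and 7.17 ± 0.03 in Tconv cells, so both BAT cell types were nearer to spleen Treg than to spleen Tconv cells. The 59 lower probes had a mean of 5.82 ± 0.13 in spleen Treg and 7.84 ± 0.18 in spleen Tconv cells. In warm BAT they had 6.31 ± 0.05 in Treg and 6.74 ± 0.08 in Tconv cells, both nearer to spleen Treg cells. Over all tested probes the group means lay between 6.06 and 6.12. Spleen and BAT lay on different BeadChips, so tissue and BeadChip cannot be told apart in these levels, and the spleen values chose the probes.

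Among the 91 higher probes not called in warm BAT, 65 had a spleen Tconv mean more than 2-fold below the mean of the warm BAT groups, and 22 had a spleen Treg mean more than 2-fold above it. Among the 53 lower probes not called in warm BAT, 40 had a spleen Tconv mean more than 2-fold above the warm BAT mean, and 17 had a spleen Treg mean more than 2-fold below it. Over all tested probes, the spleen Tconv mean was more than 2-fold below the warm BAT mean for 8.29% and above it for 3.30%, and the spleen Treg mean for 6.01% and 1.66%. The spleen values chose these lists, and the counts were not tested against each other.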

How the data were processed

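The authors deposited a table with the mean bead intensity of each probe on each of the 18 arrays, per the file headers not normalized, together with a detection p-value, whose calculation is not given in the sources used here, and the SD and number of beads. A further 60 columns of per-sample values were not used. In R 4.3.3, neqc of limma 3.58.1 used 936 negative control probes to correct the signals of 45267 regular probes for background (offset 16), followed by quantile normalization and log2. Another 34 control probes entered no test. Testing was limited to probes whose detection p-value was under 0.05 in every array of 1 or more groups.

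One mean per group was fitted over 18 arrays (12 residual degrees of freedom), with moderated tests and Benjamini-Hochberg adjustment over all tested probes. The labels do not say whether replicates came from separate cohorts, so p-values measure only the spread between these pools. With 3 arrays against 3, an exact permutation test could not go below a two-sided p of 0.1 for a single probe. The number of arrays limits the precision. The methods name a two-tailed t-test for the study in general, and no normalization for these arrays. The comparison, the lists and the probes were chosen with earlier results of these data known. The rule allowed the 5 highest and the 5 lowest called probes by log2 difference whose groups did not overlap, and 2 in each direction are named. For bounds, undetected signals were replaced by the lowest detected one of their array.

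The alternatives were no background correction, normexp without the negative controls, an offset of 50, median scaling, no filter, a detection p-value under 0.01, probes chosen on the spleen arrays, the replicate number as a block, the spleen or the warm arrays alone, the omission of single arrays, and the t-test of the methods. Array weights, a filter on the 95th percentile of negative controls and a fit of 5 spleen arrays alone were chosen after seeing the data. Lists of genes and cell type markers were not analysed here because the probes have no gene names. In simulated data, the fit recovered 62.1%, 73.7% and 95.5% of the probes given spleen log2 differences of 1.5, 2 and 3. Such recovery does not measure false calls. It also cannot decide whether a spread shared by all groups suits the spleen arrays, which varied more than the BAT arrays. Python 3.11.15 with matplotlib 3.10.9 drew the figures.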

Additional observations from a re-analysis of the deposited data

Results flagged for a closer look

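The Treg to Tconv difference differed between spleen and warm BAT for 33 probes by the interaction test in limma, with the spleen difference above that of warm BAT for 16 and below it for 17. The smallest adjusted p was 6.91e-05, and the sizes ran from 1.40 to 4.41 on the log2 scale. In 23 of the 33 the fitted differences had opposite signs in the 2 tissues, which choosing probes by a large difference between tissues favours. Each was called in only 1 of the tissues. In 6 of the 33, Treg and Tconv arrays did not overlap in either tissue and lay in opposite directions. At an unadjusted p under 0.05, 1457 probes differed. Tissue and BeadChip cannot be told apart, although each difference was measured within 1 BeadChip.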

How the results depend on the processing

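The counts of 103 higher and 59 lower probes became 64 and 31 without background correction, 40 and 16 with median scaling, 56 and 32 without a filter, and 32 and 15 with array weights. The fit of the 6 spleen arrays alone gave 1 and 0, and without Tconv replicate 1 it gave 0 and 1. The methods' t-test with more than 2-fold gave 188 and 122 unadjusted and 0 and 0 after adjustment. Leaving out 1 spleen array gave 87 to 212 higher and 40 to 149 lower probes. The offset of 50, normexp without the negative controls, both other detection filters, the probes chosen on the spleen arrays and the replicate block kept both counts within 1.5 times. Deviations from the group means of same-numbered Treg and Tconv arrays had r values of 0.0432, 0.0498 and 0.00811. Little shared deviation was thus seen, which cannot decide whether same-numbered arrays came from the same mice. The replicate block gave 103 and 52 calls, of which 91 and 46 were among the original ones.

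The interaction count of 33 became 19 with normexp without the negative controls, 19 with median scaling, 16 without a filter, 12 with probes chosen on the spleen arrays, 20 with the replicate block and 18 with array weights, and ran from 14 to 138 with 1 array left out.

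ILMN_1229957 lost its call under 11 of 19 alternatives with adjusted p-values, which ran from 0.00746 to 0.271. ILMN_2911009, ILMN_2635132 and ILMN_1249213 lost theirs with the spleen arrays alone, with or without Tconv replicate 1, and with the adjusted t-test. No direction of the 4 probes reversed. They were chosen from these same arrays for large differences without overlap, so a reversal was hardly possible.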

Other observations

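Among the 33 probes, 16 were called in warm BAT and not in the spleen. Of these, 12 were higher in warm BAT Treg cells, with a median log2 difference of 2.21 there and of 0.02 in the spleen, and 9 of the 12 were undetected on every array of at least 1 spleen group. The other 4 were lower in warm BAT Treg cells, with a median of −2.38 there and of 0.09 in the spleen. Of these 4, 3 were likewise undetected on every array of at least 1 spleen group. Their median spleen levels were 5.21 in Treg and 4.95 in Tconv cells, near the lowest detected signals of the spleen arrays (5.14 to 5.27). All 16 had the sign of warm BAT in cold BAT.

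Over the tested probes, Pearson's r between the Treg to Tconv differences of spleen and warm BAT was 0.154, and that between spleen and cold BAT was 0.126. The value between warm and cold BAT was 0.545. These describe correlations across probes, which are not independent, and no pair of these comparisons shares an array.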
